A study of Mus musculus with 3 samples.

Results

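The Hox cluster genes were described in chromatin of embryonic mouse liver profiled by DNase-seq. They were taken as every protein-coding gene whose symbol is Hoxa, Hoxb, Hoxc or Hoxd followed by a number, which gave 39 of 21938 protein-coding genes. There were 11 genes in the Hoxa cluster on chromosome 6, 10 in Hoxb on chromosome 11, 9 in Hoxc on chromosome 15 and 9 in Hoxd on chromosome 2. The enzyme DNase I cuts accessible DNA more often than packed DNA, so a peak of cuts marks a promoter, enhancer or other element in open chromatin. A footprint is a short stretch inside such a region that is cut less than its surroundings, as happens where a protein covers the bases. All libraries came from whole liver of embryos at 13.5 days, strain C57BL/6N,129, with a homozygous globin mutation described as an HS2 HS3 deletion. HS2 and HS3 are names used for enhancer elements of the beta-globin locus, and the labels do not spell them out. The labels number 3 biological replicates with a tissue record each and a single donor record, and do not say how many embryos each held. This was the only group, no liver with an intact globin locus was analysed here, and the results are descriptions over 3 replicates with no comparison between genotypes.

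Hox genes encode homeodomain transcription factors that set position along the body axis. Within a cluster the genes lie in the order in which they act: low paralog numbers are expressed early and anteriorly, high numbers late and posteriorly. Where a cluster is silent it is known to be covered by Polycomb complexes, and sites of the insulator protein CTCF separate neighbouring genes into domains. In blood, genes of the Hoxa and Hoxb clusters act in stem and progenitor cells and are switched off as red cells mature, and the liver at this stage is the main site of red cell production.

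The tissue label was checked against its defining markers. Of 10 markers of red cell precursors, 9 had an open promoter in all 3 replicates. Of 12 hepatoblast markers none was open in all 3, with 2, 8 and 0 open in replicates 1, 2 and 3. The promoters of Alb and Afp, the main serum proteins of the embryonic liver, held no peak of the shorter list in any replicate. In the longer of the 2 peak lists 5, 11 and 5 of the 12 were open. There Afp had 0.731 and 1.19 in replicates 1 and 2, and Alb 0.399 in replicate 3. Over all protein-coding genes 50.9% were open in all 3 replicates of the shorter list. The shorter peak lists held 28209, 57314 and 41319 peaks, so replicate 1 had the fewest and replicate 2 the most. In a whole tissue, a site open in few cells and a site weakly open in many cells cannot be told apart.

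The sequences that recurred across replicates are shown before the values, because most footprints common to all 3 replicates held them. Footprints of the 3 replicates were joined where they overlapped, which gave 76 stretches in the clusters with 20 kb on each side. Of these, 10 had a footprint in all 3 replicates: 4 in Hoxa, 2 in Hoxb, 2 in Hoxc and 2 in Hoxd. In 9 of the 10 the letters matched a CTCF weight matrix of 20 bases. This matrix was built from the common footprints outside the Hox clusters, starting from the 3025 that hold an exact CTCF word of 12 letters. Its highest-scoring letters are GTGGCCACCAGGGGGCGCCA. A match is a score above 10.5, the limit that 1% of footprints reach when the matrix is read backwards. Below, the 20 matched bases are in capitals with 5 flanking bases on each side, 5′ to 3′ on the strand of the match, in mm10 coordinates and GRCm38 sequence.
Hoxa5 promoter, chr6:52204650-52204679, minus strand: gcccaGTCTCCAGCGGGTGGCGCTCgagtc
Hoxa7 promoter, chr6:52221800-52221829, minus strand: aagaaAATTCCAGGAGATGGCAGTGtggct
Hoxa10 promoter, chr6:52240532-52240561, minus strand: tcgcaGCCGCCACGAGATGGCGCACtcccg
Gm53 start near Hoxb9, chr11:96261744-96261773, minus strand: cgcgaCCGACCTCTAGGCGGCGCCCtggcg
Hoxb5 promoter, chr11:96303236-96303265, plus strand: cgtcaATCGCCGGGAGGTGGCGCGCtctgc
Hoxc10 promoter, chr15:102966563-102966592, plus strand: ccgagGCAGCTGCTAGGTGGCGCTGttact
Upstream of Hoxc8, chr15:102987584-102987613, plus strand: aacaaGTGAACGCGAGGTGGCGCTGttgct
Upstream of Hoxd8, chr2:74702386-74702415, plus strand: cgcatTTGGCCACTAGAGAGCGCTGttgct
Hoxd3os1 start near Hoxd4, chr2:74715912-74715941, plus strand: gagctTTGTCCAGGAGGAGGCGCTGtagga

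The 9 sequences were picked and aligned by their score to the matrix, so likeness to its letters is built in. The letters GGCGC, picked out after the sequences were seen, stood in 7 of the 9, against 35.3% of the 10466 matching footprints of the whole genome. A CG pair lay within 8 of the 9 matches, against 68.2% of all matches. The run GGGGGC, part of the matrix's highest-scoring letters, was in none of the 9 and in 30.6% of all matches. The Hoxa7 match lies in the 5′ UTR exon of that gene's most upstream transcript and the Hoxa10 match in the 5′ UTR of Hoxa10. The match upstream of Hoxc8 lies in an intron of a long Hoxc5 transcript, and the Hoxd3os1 match in an exon of that noncoding antisense gene. In 8 of the 9 the match reads in the direction in which the cluster's genes are transcribed, the exception being the site at Gm53. Of the 11 matches in sites with a longer-list peak in all 3 replicates, 9 did so. The share over the genome was not counted, so these counts have no background.

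The remaining common footprint, 19 bp wide, lay 5′ of the Hoxa5 start next to the matching one. It scored 5.45, below the limit, and 32.4% of all common footprints scored as high. Its bases, in capitals, are nearly all G and C.
Hoxa5 promoter, chr6:52204596-52204624, plus strand: ggtggCGCGCGCGCCCTGGGCGCGtcccc

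Among all 54781 footprints common to the 3 replicates, 19.1% had a matrix match, against 9 of 10 in the Hox clusters. The common Hox footprints, as joined over replicates, were 19 to 41 bp wide with a median of 30 bp. The median of all common footprints, joined likewise, was 24 bp, and wide ones match more often. Before joining, the median Hox footprint was 10, 10 and 10.5 bp in replicates 1, 2 and 3, against 10, 10 and 9 bp for all footprints. Among common footprints of at least 30 bp, 37.8% had a match genome-wide and 6 of 6 in the Hox clusters. The scores of the 9 matches ran from 13.4 at Hoxa7 to 17.4 at Hoxa10, and 15.8% and 9.24% of all common footprints scored as high. The exact CTCF word was in none of the 10, and 4 of the 10 held it with up to 1 mismatch. The count of 9 depends on the matrix: one built only from exact words, with its limit at the lowest 5% of their scores, was tried earlier and matched 0 of the 10 and 4.87% of all. The matrix used here was made after that result was seen, so the count is a description, and a letter match does not show that CTCF was bound.

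**Figure D1:**
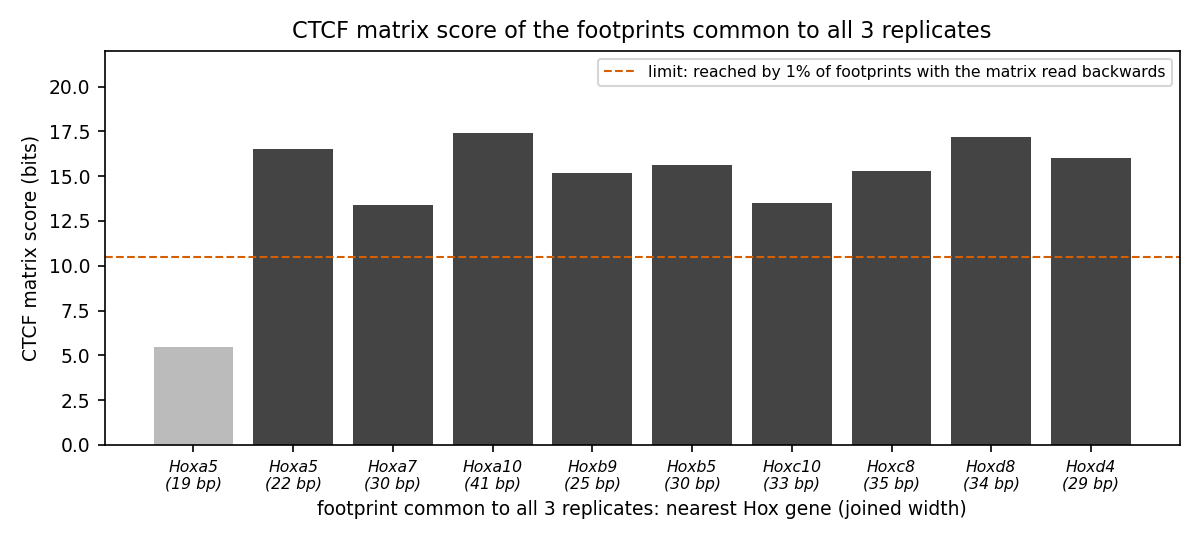
Bars show the CTCF matrix score in bits of each of the 10 Hox cluster footprints common to all 3 replicates, named by the nearest Hox gene with the joined footprint width in bp; the dashed line is the limit of 10.5. The 9 dark bars lie between 13.4 and 17.4, and the pale bar, the second footprint at Hoxa5, is at 5.45.

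Few Hox promoters were open, and those that were open were weak. A gene counted as open if the shorter peak list had a peak no farther than 500 bp from an annotated start. In replicates 1, 2 and 3, 4, 9 and 6 of the 39 genes were open, or 10.3%, 23.1% and 15.4%, whereas 51.5%, 57.5% and 55.5% of all protein-coding genes were. Open in all 3 replicates were 3 of the 39 genes, 7.69%, against 50.9% of all protein-coding genes. Hox promoters are rich in CpG, the sequence class that is mostly open. Of the 39, 29 had a ratio of observed to expected CpG of at least 0.6, against 11524 of all 21938 protein-coding genes. The median ratio was 0.722, against 0.627 over all genes. Of all protein-coding genes with such a ratio, 82.3% were open in all 3 replicates. The 3 Hox genes open in all 3, Hoxa7, Hoxa10 and Hoxb5, had ratios of 0.812, 0.722 and 0.877 and so were among the 29.

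Hoxa7, Hoxa10 and Hoxb5 were open in all 3 replicates. The signal of a peak is the highest cut density in it, normalized to read depth. Hoxa7, a central gene of its cluster, had signals of 1.46, 1.40 and 2.09 in replicates 1, 2 and 3 (mean 1.65 ± 0.385 SD, n = 3). Hoxa10, a posterior gene that acts in blood progenitors and the uterus, had 0.529, 1.05 and 1.43 (1.01 ± 0.453). Hoxb5, a central gene used as a mark of long-lived blood stem cells, had 1.22, 0.820 and 1.24 (1.09 ± 0.236). The replicates of Hoxa10 spread the most, with replicate 1 the lowest, and those of Hoxb5 the least. The Hoxa7 and Hoxa10 peaks that the 3 replicates shared lay at upstream starts. At the principal start of Hoxa7 replicate 1 alone had shorter-list peaks, the highest with a signal of 0.567, and at that of Hoxa10 no replicate had one. With a single start per gene, the principal one, Hoxb5 alone was open in all 3 replicates.

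These signals were low for promoters. The median signal over all open promoters was 5.03, 5.56 and 4.64 in the 3 replicates, and over the open Hox promoters it was 0.876, 0.787 and 1.43. The strongest Hox promoter, Hoxa7 in each replicate, exceeded 11.3%, 18.9% and 24.4% of the open promoters of the same library. When the stronger 50% of the peaks of each replicate were kept, no Hox promoter was open in all 3.

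**Figure D2:**
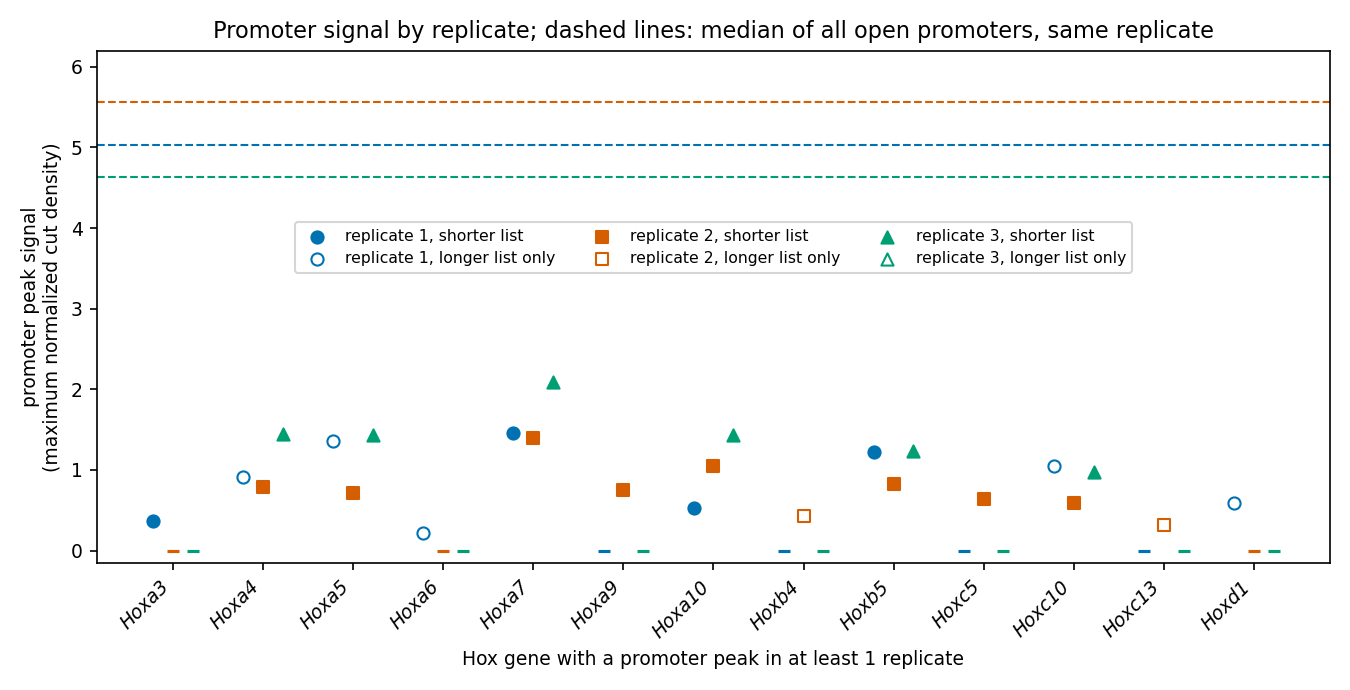
Promoter peak signal (maximum normalized cut density) of 13 Hox genes with a promoter peak in at least 1 replicate, by replicate; filled symbols are peaks of the shorter list, open symbols peaks that only the longer list held, and bars at 0 mean that neither list held a peak. The highest point is Hoxa7 in replicate 3 at 2.09, and the dashed lines, the median of all open promoters in each replicate, are at 5.03, 5.56 and 4.64.

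The next 3 genes were open in replicates 2 and 3 and absent from the shorter list of replicate 1. Hoxa4, an anterior gene, had 0.787 and 1.45, Hoxa5, which acts in lung and blood development, had 0.711 and 1.43, and Hoxc10, a posterior gene of the lumbar region, had 0.594 and 0.979. For each of these the longer list of replicate 1 did hold a peak, with signals of 0.907, 1.36 and 1.05. The signal of the replicate 1 peak at Hoxa5 was above that of some peaks the shorter list kept, such as Hoxa10 at 0.529, so the lists do not differ by signal alone. In the longer list these 3 joined Hoxa7, Hoxa10 and Hoxb5, giving 6 of 39 open in all 3 replicates (15.4%) against 55.7% of all protein-coding genes. Without replicate 1 the shorter list gave the same 6 genes.

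Further genes were open in 1 replicate of the shorter list. Hoxa9, a gene of blood progenitors that is often active in leukaemia, had 0.745 in replicate 2, and Hoxc5, a central gene, 0.636 in replicate 2. Hoxa3 had 0.365 in replicate 1, at its principal start, which lies between Hoxa6 and Hoxa7. The longer list added single peaks of 0.214 at Hoxa6 and 0.592 at Hoxd1 in replicate 1, and of 0.427 at Hoxb4 and 0.318 at Hoxc13 in replicate 2. Each of these longer-list values is from 1 library.

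The other 25 genes had no promoter peak in either list in any replicate. They were Hoxa2, Hoxa11 and Hoxa13, then Hoxb1, Hoxb2, Hoxb3, Hoxb6, Hoxb7, Hoxb8, Hoxb9 and Hoxb13, then Hoxc4, Hoxc6, Hoxc8, Hoxc9, Hoxc11 and Hoxc12, and all of Hoxd3, Hoxd4 and Hoxd8 to Hoxd13. Bases whose cut density passed a false discovery rate of 0.05 gave nearly the same picture below the peak threshold. Such bases lay within 500 bp of a start in all 3 replicates for 6 of 39 Hox genes (15.4%) and for 56.8% of all protein-coding genes. For 24 Hox genes no such base was listed in any replicate, and Hoxb9 was the gene with listed bases, 22 in replicate 2, and no peak.

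By cluster, the genes open in all 3 replicates were 2 of 11 in Hoxa, 1 of 10 in Hoxb, 0 of 9 in Hoxc and 0 of 9 in Hoxd. Open in at least 1 replicate were 7 in Hoxa, 1 in Hoxb, 2 in Hoxc and 0 in Hoxd. Within each replicate Hoxa had the most open promoters, with 3, 6 and 4, and Hoxd had 0 throughout the shorter list. By position, 0 of 12 genes of paralog groups 1 to 4 were open in all 3 replicates, 2 of 11 of groups 5 to 8 and 1 of 16 of groups 9 to 13. The mean promoter signal over all genes of a class, counting 0 where no peak was listed, was highest for groups 5 to 8 in each replicate: 0.244, 0.324 and 0.433, against 0.0305, 0.143 and 0.121 for groups 1 to 4 and 0.0331, 0.150 and 0.151 for groups 9 to 13. The means for groups 5 to 8 rest on few genes, as 7 of the 11 had no shorter-list peak in any replicate. In replicate 1 the open ones were Hoxa7 and Hoxb5 alone. At its principal start Hoxa7 had a mean signal of 0.189, against 1.65 over all starts. An exact sign-flip test over 3 replicates cannot give a two-sided p below 0.25, so none is given. All 3 genes of paralog group 5, Hoxa5, Hoxb5 and Hoxc5, had a peak in at least 1 replicate, as did Hoxa10 and Hoxc10 but not Hoxd10 of group 10.

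Peaks in the clusters also lay away from the Hox promoters. With 20 kb on each side the clusters span 145.3 kb (Hoxa), 213.9 kb (Hoxb), 155.8 kb (Hoxc) and 136.8 kb (Hoxd), 651.8 kb in all. They held 16, 20 and 14 peaks of the shorter list, of which 11, 9 and 6 lay within 500 bp of a Hox start. This was 2.45, 3.07 and 2.15 peaks per 100 kb, above the genome's 1.07, 2.16 and 1.56 in each replicate. Single clusters differed. In replicate 1, 13 of the 16 peaks lay in Hoxa, and Hoxb, Hoxc and Hoxd, at 0.935, 0.642 and 0, were below the genome. In replicates 2 and 3 Hoxa (5.51 and 3.44) and Hoxb (2.80 and 2.34) were above it and Hoxd (1.46 in each) below. Hoxc was above it in replicate 2 (2.57) and below in replicate 3 (1.28). The density fell in the order Hoxa (5.97 ± 2.78, SD, n = 3), Hoxb (2.03 ± 0.973), Hoxc (1.5 ± 0.981) and Hoxd (0.974 ± 0.844 peaks per 100 kb). The lowest Hoxa replicate, at 3.44, was above the highest of Hoxb, at 2.80, and the ranges of Hoxb, Hoxc and Hoxd overlapped. The Hoxa value rests in part on replicate 1, without which its mean was 4.47.

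Joining peaks of both lists gave 49 sites, of which 32 in Hoxa, 9 in Hoxb, 5 in Hoxc and 3 in Hoxd. In the longer list 13 sites had a peak in all 3 replicates: 5 in Hoxa, 4 in Hoxb, 2 in Hoxc and 2 in Hoxd. Of these 6 lay at Hox promoters, those of Hoxa4, Hoxa5, Hoxa7, Hoxa10, Hoxb5 and Hoxc10, and 2 at the starts of noncoding genes. A CTCF matrix match was found in 11 of the 13, against 44.7% of the 34291 regions common to all 3 replicates in the genome. The exceptions were the Hoxa4 promoter, with a best score of 4.55, and a site 1.39 kb downstream of the principal Hoxa3 start. The latter, at 10.4, lay just under the limit. Common regions near starts match less often than others, 32.3% against 56.7%, and in the clusters the counts were 7 of 8 near a start of any gene and 4 of 5 farther away. The CTCF word with up to 1 mismatch gave 5 of 13, against 27.7% of all common regions. Of the 36 Hox sites seen in fewer than 3 replicates 6 had a matrix match. The longer list held 30 of these in a single replicate, 24 of them in Hoxa. The share of matches among such less recurrent regions of the genome was not counted, so these 6 have no background.

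The strongest site of the 4 clusters was not a promoter. It lies at chr15:102987541-102987700, 2.99 kb upstream of Hoxc8 and inside an intron of a long Hoxc5 transcript. Its signals were 2.72, 1.86 and 2.37, above every Hox promoter in replicates 1, 2 and 3. The Hoxc8 promoter itself held no peak of either list. The peak reads as follows on the plus strand, with all footprints of the 3 replicates in capitals; the longest run of capitals holds the CTCF match.
Hoxc8 upstream site: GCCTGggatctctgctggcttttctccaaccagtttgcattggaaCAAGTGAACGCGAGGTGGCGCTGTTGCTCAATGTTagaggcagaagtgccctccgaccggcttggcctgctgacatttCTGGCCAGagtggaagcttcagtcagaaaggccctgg

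The strongest Hoxd site, chr2:74715861-74716040, lies at the start of Hoxd3os1, a noncoding gene antisense to Hoxd3 and Hoxd4, and in introns of their long transcripts. Its signals were 1.81 and 2.05 in replicates 2 and 3, and replicate 1 had a peak of 1.16 in its longer list only. The other Hoxd site common to all 3 replicates, 2.22 kb upstream of Hoxd8, had 0.904 and 1.10, with 1.07 in the longer list of replicate 1. So Hoxd, which had no open promoter, held 2 recurrent sites, and both carry a CTCF matrix match.
Hoxd3os1 site: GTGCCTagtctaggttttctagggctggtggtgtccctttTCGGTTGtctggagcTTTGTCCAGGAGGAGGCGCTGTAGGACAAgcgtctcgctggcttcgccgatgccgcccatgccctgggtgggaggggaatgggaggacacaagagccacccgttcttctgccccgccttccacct

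In Hoxb the strongest promoter peak, at Hoxb5, lies at chr11:96303173-96303321, just upstream of the first annotated start. It is shown because it is the sole Hoxb promoter open in any replicate of the shorter list. A site 2.92 kb upstream of Hoxb8 had higher signals in replicates 2 and 3, of 1.43 and 1.71, and 0.895 in the longer list of replicate 1. The start of Gm53, a long intergenic noncoding gene 9.72 kb upstream of Hoxb9, had 0.946 and 1.05, and 1.03 in the longer list of replicate 1. A site 36.3 kb upstream of Hoxb9, in the gap that separates Hoxb13 from the rest of the cluster, had 0.920 and 0.784 in replicates 1 and 3, and 0.326 in the longer list of replicate 2. All 4 of these recurrent Hoxb sites held a CTCF matrix match.
Hoxb5 promoter peak: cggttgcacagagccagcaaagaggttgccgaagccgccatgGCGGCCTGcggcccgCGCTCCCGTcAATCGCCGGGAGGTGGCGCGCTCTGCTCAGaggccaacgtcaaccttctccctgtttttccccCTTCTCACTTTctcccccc

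In Hoxa the recurrent sites outside promoters were few. One lay downstream of the principal Hoxa3 start. It had 0.958 in replicate 1, and 0.770 and 0.987 in the longer lists of replicates 2 and 3. Another lay between Hoxa13 and Hoxa11, just past the 3′ end of Hoxa13 and 3.67 kb from its start. This other site had 0.946 and 1.15 in replicates 2 and 3 and no peak in replicate 1. That site carries a CTCF matrix match and lies at the start of the transcript model 9530018H14Rik. Of the 49 noncoding genes in the 4 clusters none was open in all 3 replicates of the shorter list and 6 were open in at least 1. Some of the 6 start within 500 bp of a Hox start, and some share a peak. The share over all noncoding genes was not counted, so these counts have no background. Hotair, a noncoding gene in the Hoxc cluster, had no peak of either list.

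**Figure D3:**
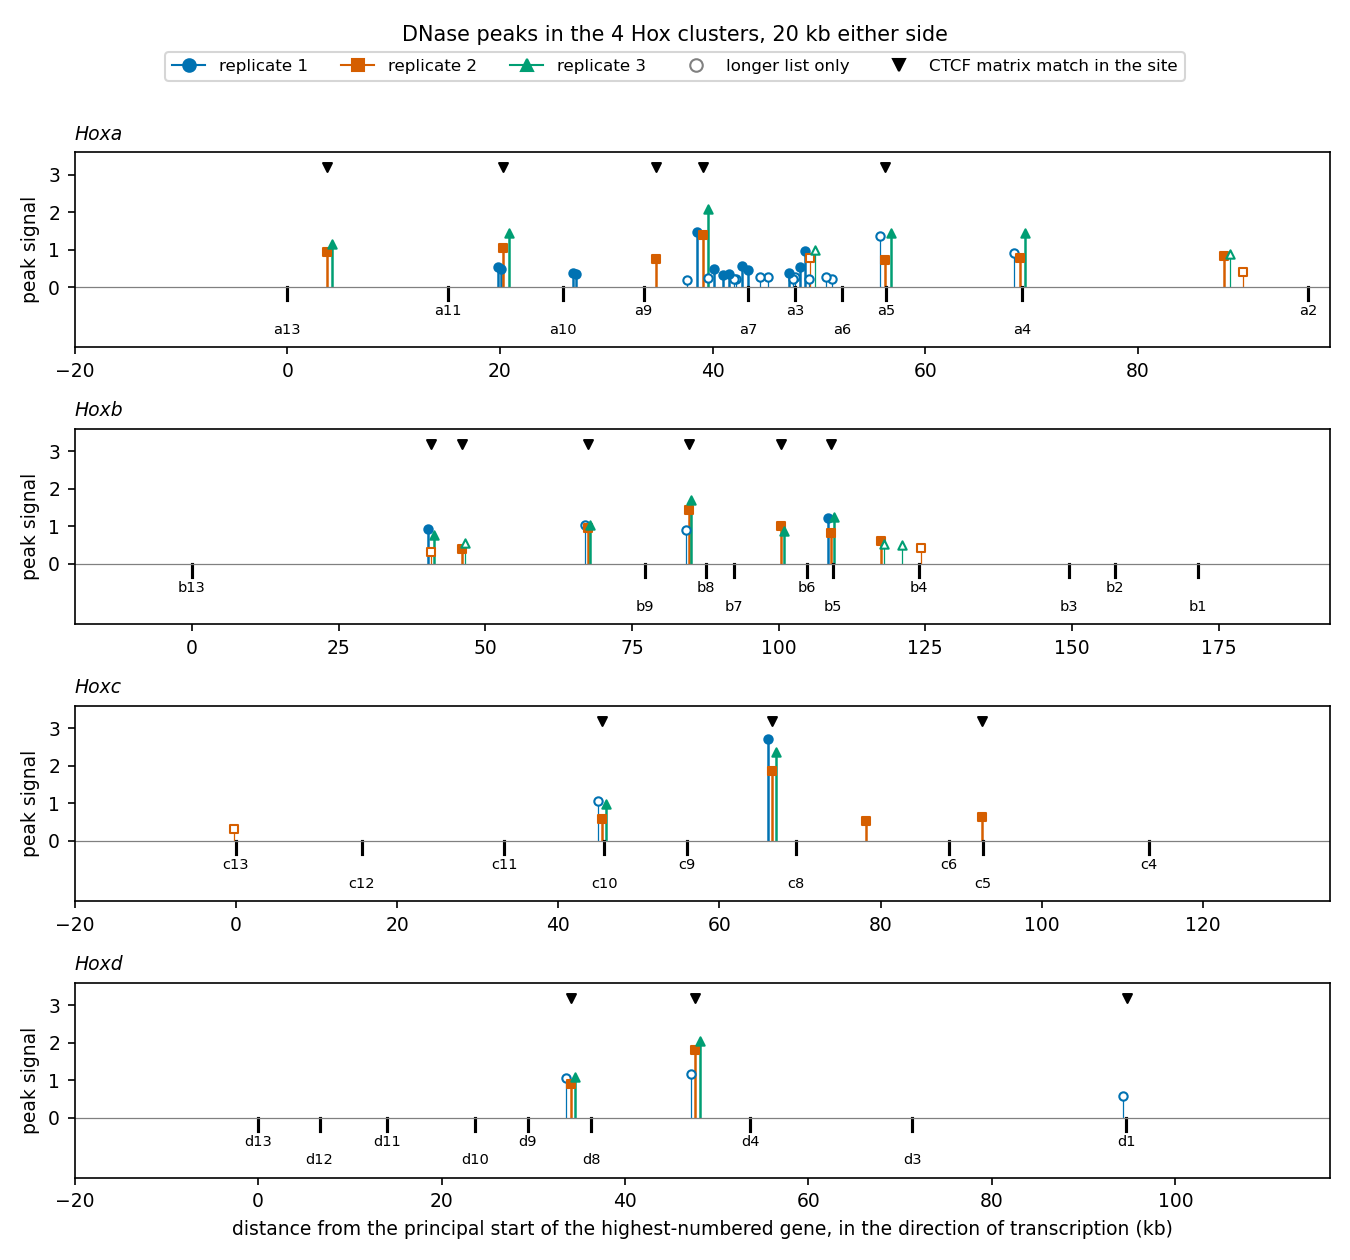
Peak signal of every site in the 4 clusters with 20 kb on each side (Hoxa ends just past Hoxa2), by replicate, against distance in kb from the principal start of the highest-numbered gene in the direction of transcription; open symbols are peaks of the longer list only, ticks under the axis are principal starts, and black triangles mark sites with a CTCF matrix match. The tallest site, upstream of Hoxc8, reaches 2.72, and both sites of Hoxd with peaks in all 3 replicates carry a triangle.

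Replicate 1 stood apart in the Hoxa cluster. From the start of Hoxa6 to the upstream start of Hoxa10, a stretch of 32.1 kb chosen after the values were seen, replicate 1 had 13 peaks of the shorter list where replicates 2 and 3 had 3 and 2. In the rest of the Hoxa cluster the order was reversed, with 0 peaks in replicate 1 and 5 and 3 in the others. The median signal of the 13 peaks was 0.479, and 11 of the 18 sites seen in a single replicate of the shorter list were seen in replicate 1, all of them in Hoxa. Bases under the false discovery rate limit made up 21.3% of the stretch in replicate 1, against 3.02% and 2.12% in replicates 2 and 3. Tiles of 32 kb over the genome were counted, with size and limits set after the Hoxa values were seen. Of 85165 tiles, 6 (0.00705%) had at least 15% of their bases listed in replicate 1 and at most 5% in both others. Among these 6 was 1 in Hoxa, and 1 and 9 tiles did so for replicates 2 and 3. Over the genome 0.639% of bases were listed in replicate 1. How many tiles reach 15% at all was not counted, so the share does not show how unusual a difference between replicates is. The replicate 1 cover in the Hoxa stretch fell into separate patches, around Hoxa6 and Hoxa7 and around the starts of Hoxa10, with none at Hoxa9 between them. Its cause was not tested. Of the genes open in all 3 replicates Hoxa7 and Hoxa10 lie in this stretch and Hoxb5 does not, and without replicate 1 all 3 were still open.

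**Figure D4:**
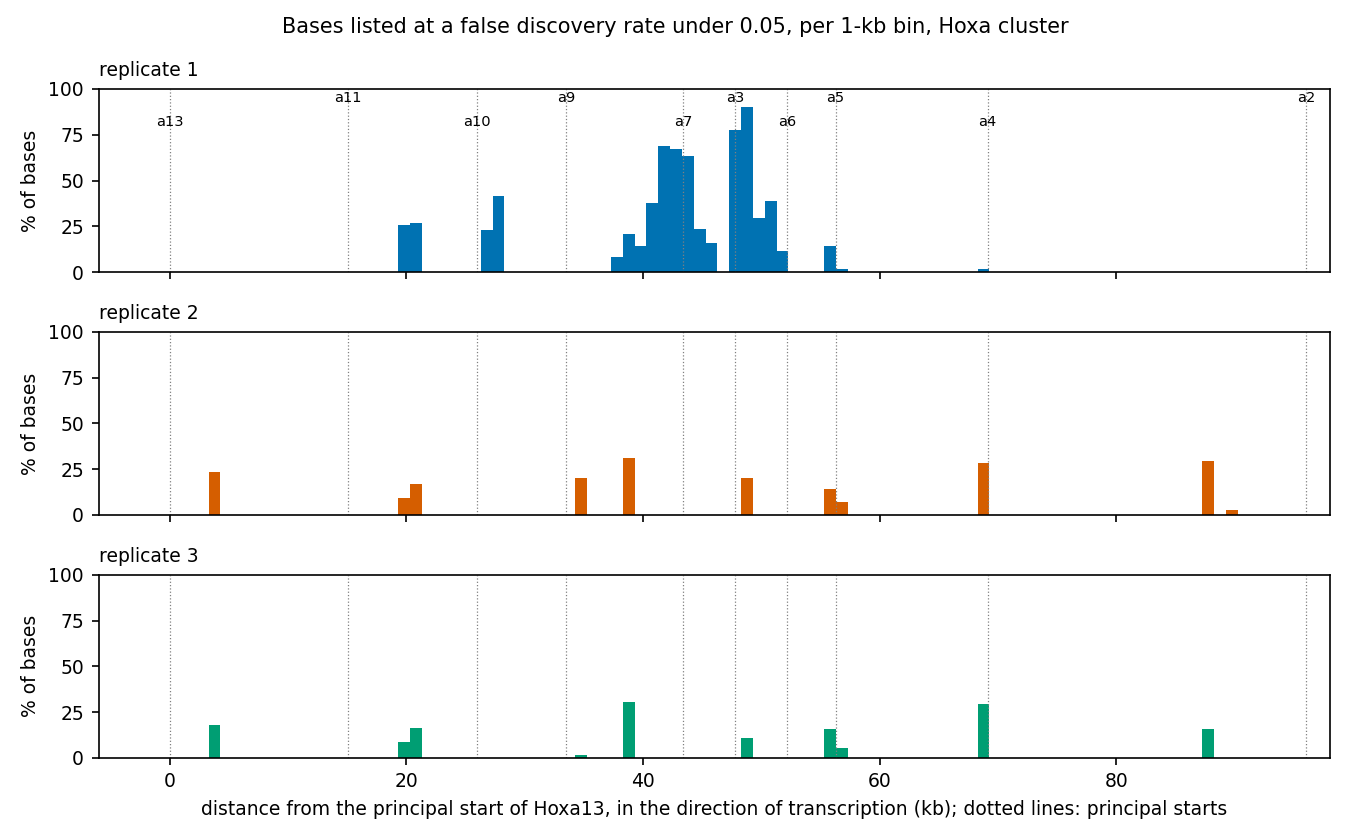
Percent of bases in each 1-kb bin of the Hoxa cluster that were listed at a false discovery rate under 0.05, for each replicate, against distance in kb from the principal start of Hoxa13 in the direction of transcription; dotted lines mark principal starts. Replicate 1 has broad cover around Hoxa7, Hoxa3 and Hoxa6, while replicates 2 and 3 have narrow bins spread over the cluster. The plot ends just past Hoxa2.

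The clusters held 39, 47 and 36 footprints, 5.98, 7.21 and 5.52 per 100 kb, against 4.78, 7.36 and 6.79 in the genome. In replicates 2 and 3, 85.1% and 83.3% of the Hox footprints lay in peaks of the shorter list, and in replicate 1 46.2% did, against 71.1%, 75.4% and 70.2% of all footprints in replicates 1, 2 and 3. With 5 bp added on each side, the E-box word CANNTG was in 13.7% ± 3.35 of Hox footprints and in 7.34% ± 0.542 of all (mean and SD, n = 3). The Hox share was 4, 8 and 5 footprints in replicates 1, 2 and 3, and a place can recur across replicates. The common footprints at Hoxc10, upstream of Hoxc8 and upstream of Hoxd8 held both the E-box word and a CTCF matrix match. The CTCF word with up to 1 mismatch was in 10.7% ± 3.11 against 5.74% ± 0.561. Words common in open promoters were rarer: GGGCGG, bound by Sp and KLF factors, was in 1.42% ± 2.46 against 10.2% ± 1.47, and CCNCNCCC in 1.42% ± 2.46 against 10.4% ± 0.727. No Hox cluster footprint held GATAA, bound by the red cell factors of the GATA family, against 1.72% ± 0.657 of all, nor TGTGGT (RUNX), TGACAG (MEIS), TGATNNAT (HOX with PBX), TAATTA (homeodomain) or TTTATNG (CDX). With 36 to 47 footprints a replicate, 1 footprint is over 2% of the total, so these zeros say little about words that are rare everywhere.

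Genes that act with or on the Hox genes were mostly open, with exceptions by class. Open promoters are common: 50.9% of all protein-coding genes were open in all 3 replicates, and 82.3% of those with a CpG ratio of at least 0.6. The listed genes were not compared with genes of like CpG ratio, so their counts are descriptions. Of 9 cofactors of the TALE class, homeodomain partners of HOX proteins, 8 were open in all 3 replicates. Their highest signals were those of Pknox1 (11.0, 22.2 and 10.4) and Pbx3 (10.3, 14.1 and 10.8). Meis1, a partner of HOXA9 in blood progenitors, had 1.74, 2.47 and 1.70, and Pbx2, Pbx4, Meis3 and Pknox2 had means of 3.95 ± 0.307, 3.94 ± 1.30, 1.32 ± 0.0804 and 0.597 ± 0.0955 (SD, n = 3). Meis2 was the exception, with 0.820 in replicate 2 alone. All 10 trithorax-type genes, which keep Hox genes active, were open in all 3, with the highest mean signals at Dot1l (12.6 ± 2.57), Kmt2a (12.0 ± 2.26) and Wdr5 (11.8 ± 1.61). So were all 16 Polycomb genes, which keep them silent, highest at Jarid2 (10.9 ± 3.73), Ezh2 (10.3 ± 2.29) and Eed (9.58 ± 1.68). The 3 insulator genes Ctcf (5.77 ± 0.524), Rad21 (8.28 ± 2.00) and Smc3 (14.2 ± 2.68) were open as well. Of the caudal genes Cdx1, Cdx2 and Cdx4, which switch on Hox genes in the early embryo, none had a peak in either list, nor did Evx1 and Evx2, the homeobox genes that flank Hoxa and Hoxd. The demethylase gene Kdm6a, which removes the Polycomb mark, was open at 7.82, 15.4 and 7.20, and Kdm6b was not. Of 8 genes of retinoic acid signalling, an inducer of anterior Hox genes, 5 were open in all 3, highest at the receptor genes Rxrb (14.5 ± 3.03), Rxra (4.12 ± 0.654) and Rara (1.80 ± 0.496), and Cyp26a1, which degrades retinoic acid, in none.

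Markers of the cell types in which Hox promoters could be open were counted in the same way. Over all protein-coding genes 50.9% were open in all 3 replicates, and 51.5%, 57.5% and 55.5% in replicates 1, 2 and 3. The counts alone do not show which cell types were present. Of 9 markers of blood stem and progenitor cells 4 were open in all 3 replicates, with 4, 8 and 7 open in replicates 1, 2 and 3 and summed signals of 10.9, 17.8 and 15.4. Of 12 mesenchymal and stellate cell markers 3 were open in all 3, with 3, 4 and 3 per replicate and sums of 6.07, 5.88 and 5.64. Of 8 endothelial markers none was open in all 3, with 0, 3 and 1 per replicate and sums of 0, 1.59 and 0.603. Of 5 neuron markers 1, 4 and 3 were open in replicates 1, 2 and 3. The Hox counts of 4, 9 and 6 had the same order over replicates as the progenitor, endothelial and neuron counts and as the total number of peaks. The share of all protein-coding genes had that order too, so it is not particular to these cell types. The mesenchymal counts did not have it, nor did those of hepatoblast (2, 8 and 0), red cell precursor (9, 9 and 9) and muscle markers (0, 1 and 0). Which cells the Hox peaks came from was not tested.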

How the data were processed

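DNase-seq libraries of 3 biological replicates of 1 group were used, with 2 peak lists, a footprint list and a false discovery rate (FDR) list each. Per the notes deposited beside the files, each list derives from a replicate's own filtered mm10 alignments. Not given in the sources used here were aligner, callers and depth. Per peak, the signal the authors deposited is the depth-normalized maximum cut density. The deposited FDR values, a p-value type of measure, list only bases below 0.05, and each deposited footprint carries an FDR of 0.01. Depth being unknown, no counting interval was given, and 0 means that a list holds no peak.

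Gene starts were those of GENCODE M21, and sequence was read from GRCm38.p6, the files' build. The shorter list was the main list. Peaks and footprints of different replicates were joined where they shared 1 bp. The CTCF matrix (4 bases on each side of the 12-letter word, pseudocount of 1%, 5 rounds, footprints with 10 bp on each side) was learned outside the clusters. Python 3.11.15, numpy 2.4.6, pandas 2.3.3 and matplotlib 3.10.9 were used, and the steps were tested on simulated data. Replicate numbers are those of the labels, and spreads are SD over 3 replicates, which may be partly technical. Members and gene lists were chosen with earlier results of these data known. All 39 genes were accounted for: those with a shorter-list peak were named with every replicate's value, and of the lists of related genes the 3 highest by mean signal and the Cdx, Meis and Pbx genes were named. The rule also named the 3 highest of each cell type marker list, which are given by counts only. A few genes of known role were added after their values were seen, and 2 genes these rules would name are not reported here. Alternatives were the longer list, other windows, starts and peak thresholds, cluster flanks, overlap rules and leaving out each replicate.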

Additional observations from a re-analysis of the deposited data

How the results depend on the processing

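The 3 promoters open in all 3 replicates remained 3, and the same genes, with windows of 250 and 1000 bp and without replicate 2 or 3. The count became 6 in the longer list, 1 with a single start per gene and 0 with the upper 50% of peaks, and ran from 3 to 6 when each replicate was left out. In Hoxa the 2 genes became 4 in the longer list, 0 with a single start and 0 with the upper 50% of peaks, and ran from 2 to 4 without each replicate. In Hoxb the 1 gene became 0 with the upper 50% of peaks. In Hoxc the 0 became 1 in the longer list, and ran from 0 to 1 without each replicate. The longer list gave 10.3 peaks per 100 kb in Hoxa and 3.12 in Hoxb. It raised the regions common to all 3 replicates from 2 to 5 in Hoxa, from 1 to 4 in Hoxb, from 1 to 2 in Hoxc and from 0 to 2 in Hoxd. Requiring an overlap of 50% of the shorter peak left 1 of the 2 Hoxa regions. Footprints inside peaks of the shorter list numbered 9.87 per 100 kb in Hoxa, 4.21 in Hoxb and 1.46 in Hoxd, against 14, 5.45 and 2.44 for all footprints. The share of Hox footprints with the CTCF word was 0 and with up to 1 mismatch, an alternative added after seeing the data, 10.7%. Also added after seeing the data, the matrix gave 9 of 10 matches, 0 when built from exact words only, 7 with the limit that 0.1% reach backwards, 9 with a margin of 5 bp and 8 with none. Of 10 promoter signals, all stayed within 1 SD in the longer list, and 2 moved beyond it with a single start per gene. The longer list tests little here, as Hoxa3, Hoxa7, Hoxa9, Hoxb5 and Hoxc5 had the same mean in both lists. At Hoxa4, Hoxa5 and Hoxc10 it filled the 0 of replicate 1, which had widened the SD. With 3 replicates, leaving 1 out cannot move a mean by 1 SD, so that alternative tests nothing for single signals. By it Hoxa5 went from 0.714 to 0.356 and Hoxa4 from 0.744 to 0.393 without replicate 3, Hoxc10 from 0.525 to 0.297 without replicate 3, Hoxa4 to 1.12 and Hoxa3 from 0.122 to 0 without replicate 1, and Hoxa9 from 0.248 and Hoxc5 from 0.212 to 0 without replicate 2. The peaks per 100 kb of Hoxc went from 1.5 to 0.963 without replicate 2. No paired analysis was possible because there is 1 group. Beyond these values the cause of each difference was not tested, and the unknown read depth limits what a missing peak can show.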

Other observations

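Of the nearest protein-coding genes on either side of the clusters, Skap2, Ttll6, Calcoco1, Smug1 and Mtx2 were open in all 3 replicates and Evx1, Skap1 and Evx2 were not. Beside Hoxa, Skap2, an adaptor of blood cell signalling, had promoter signals of 9.51, 17.5 and 9.35 in replicates 1, 2 and 3 at 143 kb from the cluster. On the other side Evx1, 52.6 kb away, had no peak. Beside Hoxb, Ttll6 had 0.895, 0.803 and 1.2, and Skap1 no peak of the shorter list. Both neighbours of Hoxc were open, Calcoco1 at 5.75, 8.73 and 5.30 and Smug1, a DNA repair enzyme, at 2.80, 4.13 and 2.95. Beside Hoxd, Mtx2, a mitochondrial import protein 60.7 kb away, had 2.66, 2.37 and 2.64, and Evx2, 8.75 kb away, had no peak. In each of these open neighbours except Ttll6 every replicate was above every Hox promoter of the same replicate.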
